A study of Mus musculus with 4 samples.

Results

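The Hox genes were described in cultured satellite cells of mouse muscle, the muscle stem cells (MuSC). They were chosen by name and annotation: every protein-coding gene of GENCODE release M21 whose symbol is Hoxa, Hoxb, Hoxc or Hoxd followed by a number. This gave 39 genes, against 20065 genes in the table of the whole series. Of the 39, 31 had a row in that table and 28 passed a filter of a mean normalized count of at least 5. Hoxb8, Hoxb9 and Hoxc12 had a row below that filter. Hoxb1, Hoxb13, Hoxd1, Hoxd4, Hoxd10, Hoxd11, Hoxd12 and Hoxd13 had no row in the table used here and were not analysed here. The lowest mean of any gene in the table was 0.90.

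The study asked what the arginine methyltransferase Prmt5 does in MuSC, and RNA of 2 control and 2 Prmt5sKO cultures was sequenced. The cells were purified by sorting from limb and trunk muscles of adult C57BL/6 mice. Control cells carried Pax7CreERT2/Prmt5+/loxP (+TAM) and Prmt5sKO cells Pax7CreERT2/Prmt5loxP/loxP (+TAM), so that both groups had the inducible Cre recombinase under the control of Pax7, at least 1 floxed Prmt5 allele and the inducing treatment. Limb and trunk cells were pooled, so a level below is a mean over cells of several body positions, and the positions cannot be told apart. Fewer cells that use a gene and less RNA per cell cannot be told apart either.

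Hox genes encode transcription factors that bind DNA through a homeodomain. In mammals they lie in 4 clusters, and genes at the same place in different clusters share a paralogue number and are relatives. In the embryo the low numbers are used towards the head and the high numbers towards the tail, and along the limb the highest numbers mark the parts farthest from the body. Adult cells of the trunk and limbs, muscle stem cells among them, are known to keep part of this pattern. The proteins bind DNA together with cofactors of the TALE class, the Pbx, Meis and Pknox proteins.

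The table held the mean of each group, and whole counts of each library were recovered from it. Because the columns carry no replicate numbers, the libraries of a group are called the deeper and the shallower, and where the values of a group are given as a pair the deeper library comes first. Totals ran from 13240754 to 20047430 counts. Normalized counts below are counts scaled by trimmed mean of M-values (TMM). The labels do not say how many animals or cultures stand behind a sample, and p-values measure only the spread between these samples. Prmt5, the deleted gene, stood at 2272.6 and 2906.3 normalized counts in control cells against 243.8 and 202.1 in Prmt5sKO. Myogenic markers were present in every library, with Pax7 between 2569.6 and 3663.8 and Myod1 between 12152.5 and 15548.1 normalized counts.

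Genes of differentiation and markers of other cell types were compared between the groups in the same way. Of 22 genes of muscle differentiation, 16 had both Prmt5sKO values above both control values and 0 had both below, against 25.2% and 23.6% of all genes tested. Their median log2 fold change was 2.87, and limma-voom gave 5 of them an unadjusted p under 0.05 and called 0. Myog, the factor that starts differentiation, had 1436.3 and 1189.2 normalized counts in control cells against 3706.8 and 19508.5 in Prmt5sKO. The sum of the list was 536885 in the shallower Prmt5sKO library and 89180 in the deeper one, against 87262 and 129678 in the controls, where Ttn alone gave 90032.8 of the shallower. The 6 markers of pericytes and smooth muscle summed to 4837 and 2773 in control cells against 6820 and 11284 in Prmt5sKO, and for 4 markers both Prmt5sKO values lay above both controls, against the same 25.2%. Markers of endothelial cells were low and summed to 131 and 175 against 98 and 64. Of the 4 tested, 2 were lower and 1 was higher in both Prmt5sKO libraries, against 23.6% and 25.2% of all genes tested. Kdr was lower, at 67.8 and 59.7 against 19.3 and 17.1, and Tek higher, at 13.6 and 27.2 against 43.0 and 29.2. Markers of immune cells summed to 122 and 144 against 68 and 101, and those of Schwann cells to 98 and 118 against 137 and 138. The sums of these 3 cell types did not overlap between the groups. Fibroblasts, which have a Hox pattern of their own, were checked with a list of 10 genes that summed to 15035 and 8021 against 16723 and 18916. Most of this was Col3a1. Tcf4, which had 1506.4 and 1912.9 against 2551.0 and 2133.1, is an E-protein gene and not specific to fibroblasts. The other 8 stood below Col3a1 and Tcf4 in every library, with at most 327.9 (Col1a1 in the shallower Prmt5sKO library). Pdgfra lay between 17.1 and 44.1 and Dcn between 7.9 and 115.4. Of the 10, 3 were higher, Tcf4 among them, and 1 was lower in both Prmt5sKO libraries, against 25.2% and 23.6% of all genes tested.

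The libraries of a group did not match each other in every respect. Ribosomal-type transcripts and Lars2 took 15.2% of the counts of the shallower control library and between 1.98% and 6.78% of the others. Xist, which is made from the inactive X chromosome of females, was at 8667.7 and 23.3 in control cells and at 8.2 and 5655.0 in Prmt5sKO. The genes Kdm5d, Eif2s3y, Uty and Ddx3y of the Y chromosome had at most 1.1 normalized counts in the libraries with high Xist and between 447.4 and 1175.8 in the other libraries. The libraries of a group thus differed in sex and did not come from the same animal, and the deeper control library matched the shallower Prmt5sKO library in sex. The part of the differences in differentiation, cell types and library make-up in the Hox values was not tested, and a fit with libraries paired by sex is given with the comparison.

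The clusters lie on 4 chromosomes of GRCm38. Hoxa spans chr6:52155590-52260880 with 11 coding Hox genes, Hoxb chr11:96194316-96368256 with 10, Hoxc chr15:102921103-103036852 with 9 and Hoxd chr2:74668310-74765142 with 9. Genes with one paralogue number are most alike in the homeobox, the 180 bases that encode the homeodomain. Read from the GENCODE transcripts, the 26 pairs with the same number were 73.3% to 93.9% identical over these bases (median 82.8%), and the 439 other pairs 47.8% to 88.9% (median 62.2%). The end of the homeobox, codons 41 to 60, encodes the recognition helix that lies in the major groove of DNA, and is shown for a group with high levels and for one in which the levels differed. In each, the Hoxa gene comes first, and capitals in the other line mark bases that differ from it. The stretches of paralogue number 10, which held a pair of the highest Hox levels per kilobase, lie at chr6:52232554-52232613 (minus strand) and chr15:102970968-102971027 (plus strand), and differ at 5 bases.
Hoxa10: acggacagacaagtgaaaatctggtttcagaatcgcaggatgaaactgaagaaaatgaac
Hoxc10: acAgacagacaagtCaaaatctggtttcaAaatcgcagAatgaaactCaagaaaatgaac

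Paralogue number 13 held the Hox gene with the highest fold change. Its stretches lie at chr6:52258928-52258987 (minus strand) and chr15:102927330-102927389 (plus strand). They differ at 13 bases, and over the whole homeobox at 41.
Hoxa13: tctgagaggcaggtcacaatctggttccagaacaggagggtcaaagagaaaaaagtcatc
Hoxc13: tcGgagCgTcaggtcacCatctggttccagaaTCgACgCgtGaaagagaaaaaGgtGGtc

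These likenesses are short next to a read. Of the 40-base windows of each gene's exons, at most 1.56% occurred also in a Hox gene of another cluster, and reads that mapped to several places were left out of the authors' counts. Overlap within a cluster was larger. Of the 31 genes with a row, 18 shared no exon base with another annotated gene and 13 did, the widest being Hoxd3 (62.8% of its exon bases), Hoxb3 (52.9%) and Hoxa11 (35%). Where the overlap is with the opposite strand, the strand setting of the counting, which is not given in the sources used here, bears on the value. Where it is on the same strand, as for 62.3% of the exon bases of Hoxd3, reads that overlapped several genes stayed unassigned under either setting. Levels per kilobase below still divide by all exon bases.

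Hoxa and Hoxc genes made up most of the Hox RNA in these cells, and the middle and high paralogue numbers stood above the low ones. Levels of different genes were compared as normalized counts per kilobase of exon, as the mean of the 4 libraries. Single genes did not all follow their paralogue number: Hoxa2 (45.1) stood above Hoxb4 (38.3) and Hoxd9 (11.4). Hoxa6 stood first with 194 and ranged from 147 to 230 over the libraries. Hoxc10 followed with 137 (122 to 155) and Hoxa10 with 122 (84.5 to 138). Of the 10 highest genes, 6 were Hoxa genes and 4 Hoxc genes: after these came Hoxa7 (100), Hoxa11 (97.9), Hoxa9 (91.6), Hoxa5 (87.3), Hoxc6 (83.7), Hoxc11 (79.5) and Hoxc4 (63.1). Among the protein-coding genes of the table, Hoxa6 stood at percentile 72.1, and the lowest Hox gene, Hoxb9, at percentile 0.454. The order is not resolved between neighbours: in 0 of the 30 neighbouring pairs did the ranges over the 4 libraries stand apart.

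**Figure D1:**
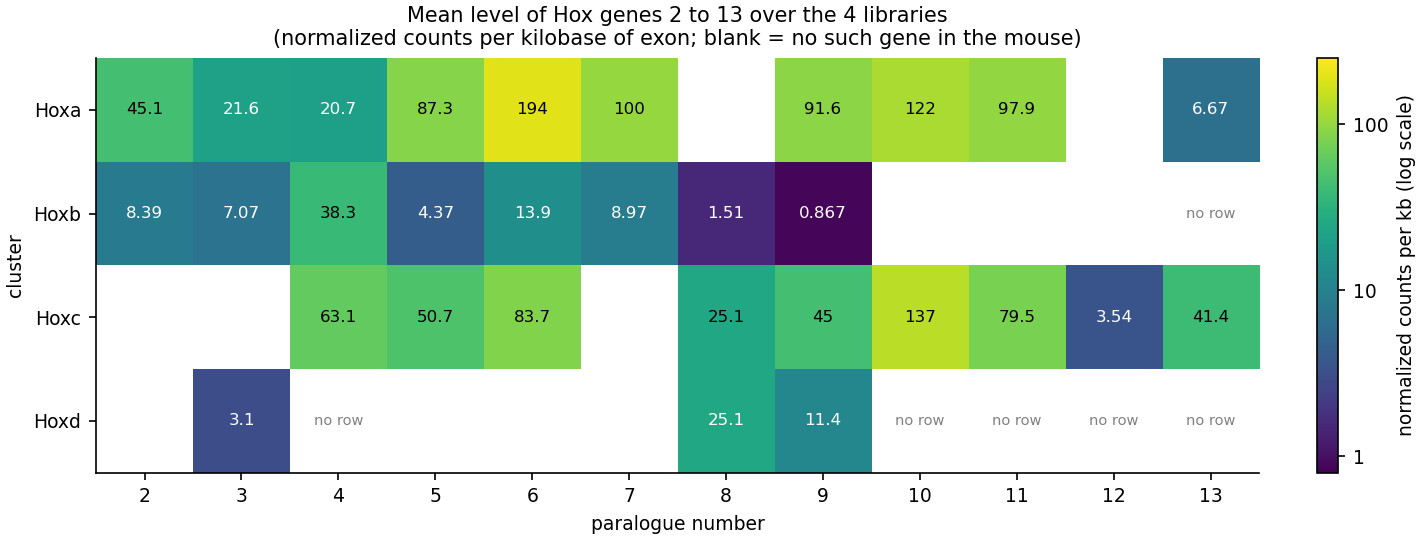
Mean level of the Hox genes with paralogue numbers 2 to 13 over the 4 libraries, in normalized counts per kilobase of exon, with clusters as rows and paralogue numbers as columns; the colour scale is logarithmic. The brightest fields are Hoxa6 (194), Hoxc10 (137) and Hoxa10 (122), the highest Hoxb gene is Hoxb4 (38.3), and genes without a row in the table are written as such.

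Read down the columns, paralogues of one number differed widely. For number 9 the mean level per kilobase was 91.6 for Hoxa9, 45 for Hoxc9, 11.4 for Hoxd9 and 0.867 for Hoxb9. Number 10 was high in both clusters with a row, at 122 for Hoxa10 and 137 for Hoxc10, and so was number 11, at 97.9 for Hoxa11 and 79.5 for Hoxc11. In number 13 the relation was turned round, with 41.4 for Hoxc13 and 6.67 for Hoxa13. In number 4 Hoxc4 (63.1) and Hoxb4 (38.3) stood above Hoxa4 (20.7). Hoxb4 was the highest Hoxb gene, and the other Hoxb genes with a row lay between 0.867 and 13.9. Of the Hoxd genes, Hoxd8 reached 25.1, as high as Hoxc8 (25.1), Hoxd9 11.4 and Hoxd3 3.1.

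In the embryo Hoxa9 to Hoxa13 and Hoxd9 to Hoxd13 pattern the limb from its base to its tip, and Hoxc10 and Hoxc11 are used in the hindlimb and lower trunk. In these cells the Hoxa genes of the limb series stood at 2 levels. Hoxa9, Hoxa10 and Hoxa11, which pattern the upper and middle limb, lay between 91.6 and 122 per kilobase, and Hoxa13, the gene of the hand and foot, at 6.67. The ranges over libraries of Hoxa11 (85.9 to 110) and Hoxa13 (2.62 to 11) did not meet.

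Taken as shares of all Hox counts, the Hoxa cluster held 60.2% and 51.6% in control cells against 58.0% and 57.6% in Prmt5sKO. The Hoxc cluster held 30.5% and 41.0% against 32.2% and 33.5%. Hoxb genes held between 4.6% and 7.0% and Hoxd genes between 2.5% and 3.7%. The shallower control library thus lay apart from the other 3, with the lowest Hoxa and the highest Hoxc share. Its 95% binomial interval (Wilson) for Hoxa, 49.7% to 53.6%, did not reach that of the deeper control library, 58.5% to 61.8%. Such intervals cover counting error only. The Prmt5sKO shares lay between the control shares for Hoxa and Hoxc, so the groups did not differ there beyond the spread of the controls. The Hox genes took 0.0186% to 0.0266% of a library's counts.

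**Figure D2:**
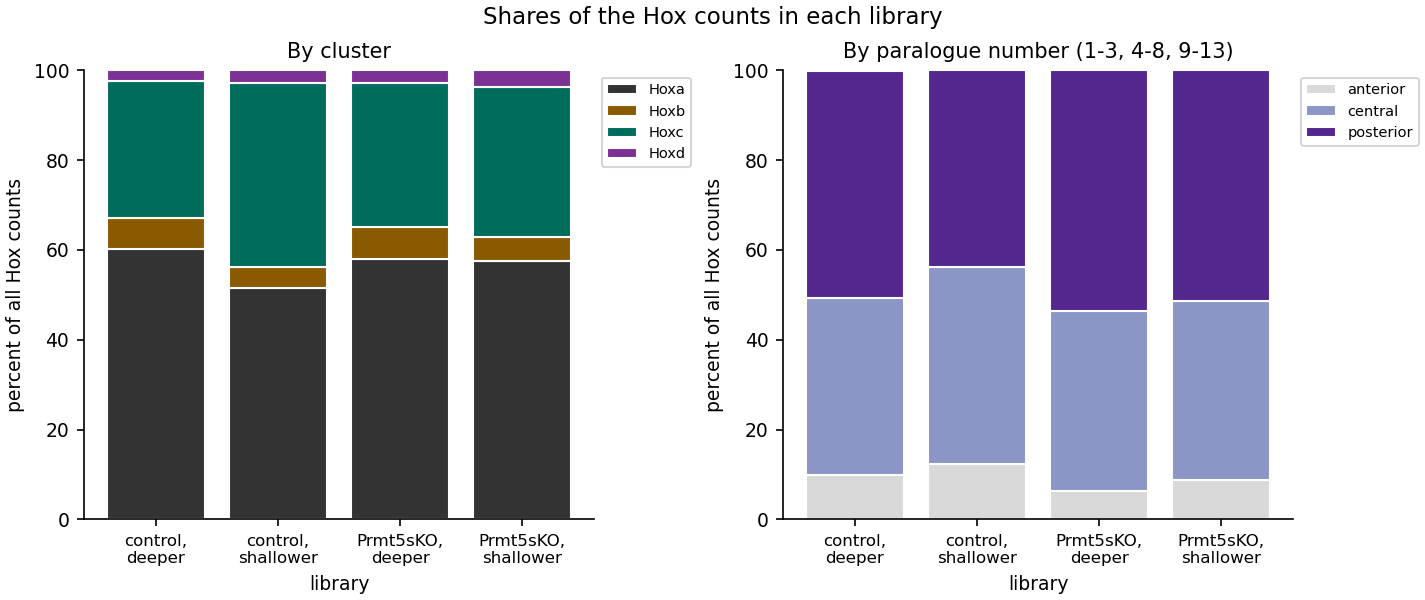
Stacked bars of the percent of all Hox counts in each library, on the left by cluster and on the right by paralogue number (anterior 1 to 3, central 4 to 8, posterior 9 to 13). Hoxa and Hoxc fill most of each bar, the shallower control library has the smallest Hoxa share (51.6%), and the anterior share of the counts is smallest in the Prmt5sKO libraries (6.3% and 8.8%), an order that is not kept per kilobase.

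By paralogue number, the anterior genes (1 to 3) held 9.9% and 12.3% of the Hox counts in control cells against 6.3% and 8.8% in Prmt5sKO. The groups did not overlap in this share, but with 2 libraries against 2 an exact two-sided permutation test cannot go below a p of 0.33. Per kilobase of exon the anterior shares were 7.4% and 9.7% against 5.2% and 7.7%, and the groups overlapped. All 6 anterior genes with a row also share exon bases with another gene. The central genes (4 to 8) held 39.4% and 43.8% in the controls and 40.1% and 39.8% in Prmt5sKO. The posterior genes (9 to 13) held 50.6% and 43.9%, and 53.6% and 51.4%. The posterior range of the controls again came from the shallower library. By counts the posterior share was above the central one in every library, but per kilobase the central share, 47.6% to 50.1%, was above the posterior one, 40.2% to 44.7%, in every library.

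In the comparison of Prmt5sKO with control, 0 Hox genes passed the test. A call needed an adjusted p up to 0.05 and at least a 2-fold change. Prmt5, the deleted gene, had the smallest adjusted p of all genes, 0.193 by limma-voom (log2 fold change -3.52), and was not called. Limma-voom called 0 of all 16212 genes tested (0%) and 0 of the 28 Hox genes. At an unadjusted p under 0.05 it gave 975 genes higher in Prmt5sKO (6.01%), Hoxc13 among them, and 1126 genes lower (6.95%), Hoxa3 among them, and no other Hox gene in either direction. Limma-trend, the other model run, also called 0 genes. Limma-voom called some genes with a replicate block in which the deeper library of 1 group was paired with the shallower of the other, the pairing of libraries of the same sex (346 genes, 2.13%), without the deeper Prmt5sKO library (489 genes, 3.07%) and without the shallower one (55 genes, 0.342%), but 0 Hox genes in each. Both Prmt5sKO libraries lay above both control libraries for 6 Hox genes, against 25.2% of all genes tested, and below them for 5, against 23.6%. Together these 11 were 39.3% of the Hox genes, while 48.8% of all genes tested had groups that did not overlap. The median log2 fold change of the Hox genes was 0.11, in a range of -1.62 to 1.67, and that of all genes 0.02. Leaving out the deeper control library gave a Hox median of 0.36, and leaving out the shallower one gave -0.08. Each of these medians covers the Hox genes that passed the filter of that fit.

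Hox genes were measured less precisely than the average gene. The median standard error of the log2 fold change was 0.50 for the 28 Hox genes and 0.38 for all genes. The 95% interval included 0 for 26 of the 28. Its median half-width was 1.21, and the smallest, for Hoxc10, was 0.71 on the log2 scale. For most of these genes the interval reached a 2-fold change in at least 1 direction, so the missing calls do not show that levels were equal. For 19 of the 28 the log2 fold change was smaller than its own standard error, as it was for 47.6% of all genes.

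**Figure D3:**
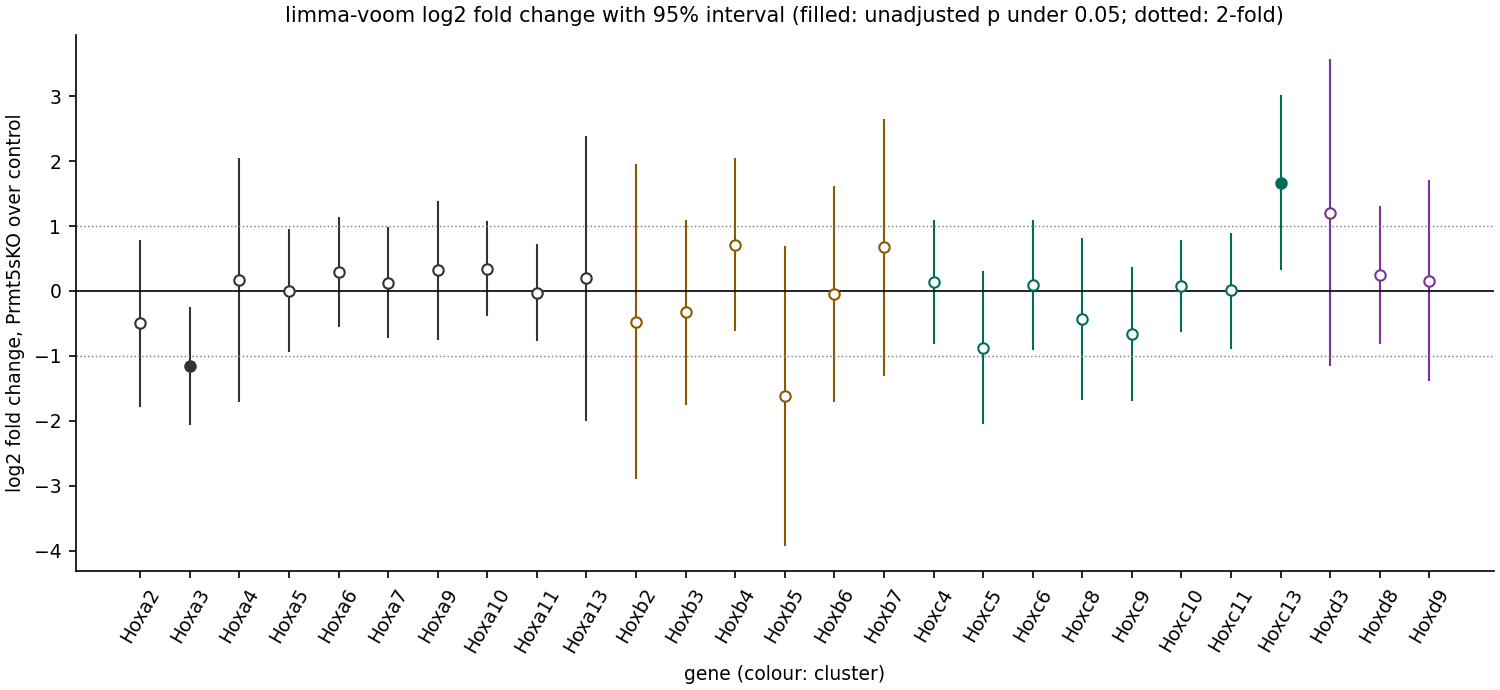
Limma-voom log2 fold change, Prmt5sKO over control, of 27 of the Hox genes tested, with 95% intervals; colours mark the cluster and dotted lines a 2-fold change. The points of Hoxa3 (-1.16) and Hoxc13 (1.67) are filled for an unadjusted p under 0.05, and the intervals of the other 25 genes plotted cross 0.

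Hoxc13 (ENSMUSG00000001655, chr15:102921103-102928814, plus strand) is the last gene of its cluster and is known for its part in hair and nails. It stood at 72.3 and 28.5 normalized counts in control cells against 131.9 and 175.0 in Prmt5sKO. Both Prmt5sKO values lay above both controls, while the controls themselves differed by more than the Prmt5sKO libraries did. The group means were 50.4 ± 31.0 and 153.4 ± 30.5 (SD, n = 2 each), and the log2 fold change was 1.67 (SE 0.55). Limma-voom gave an unadjusted p of 0.0232 and an adjusted p of 0.325. Its log2 fold change ran from 1.05 without the shallower control library to 2.35 without the deeper one. Hoxc13 shared no exon base with another gene. Its paralogue Hoxa13 had 27.1 and 6.5, and 16.3 and 16.1 normalized counts, and the groups overlapped.

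Hoxa3 (ENSMUSG00000079560, chr6:52169062-52213336, minus strand), which in the embryo acts in the throat region and its glands, lay lower in Prmt5sKO. It stood at 159.3 and 201.0 normalized counts in control cells against 80.8 and 78.4 in Prmt5sKO. The group means were 180.2 ± 29.5 and 79.6 ± 1.64 (SD, n = 2 each). The log2 fold change was -1.16 (SE 0.37), with an unadjusted p of 0.0207 and an adjusted p of 0.32 by limma-voom. It ran from -1.34 to -0.99 when single libraries were left out. Of its exon bases, 25.4% also lie in a gene on the opposite strand, among them Hoxaas2 and Hoxaas3. Hoxaas3 had 36.2 and 38.9 normalized counts, then 31.9 and 24.1, and Hoxaas2 20.3 and 23.3, then 13.3 and 25.1. Without a stated strand setting, reads of the overlap cannot be assigned to one strand.

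**Figure D4:**
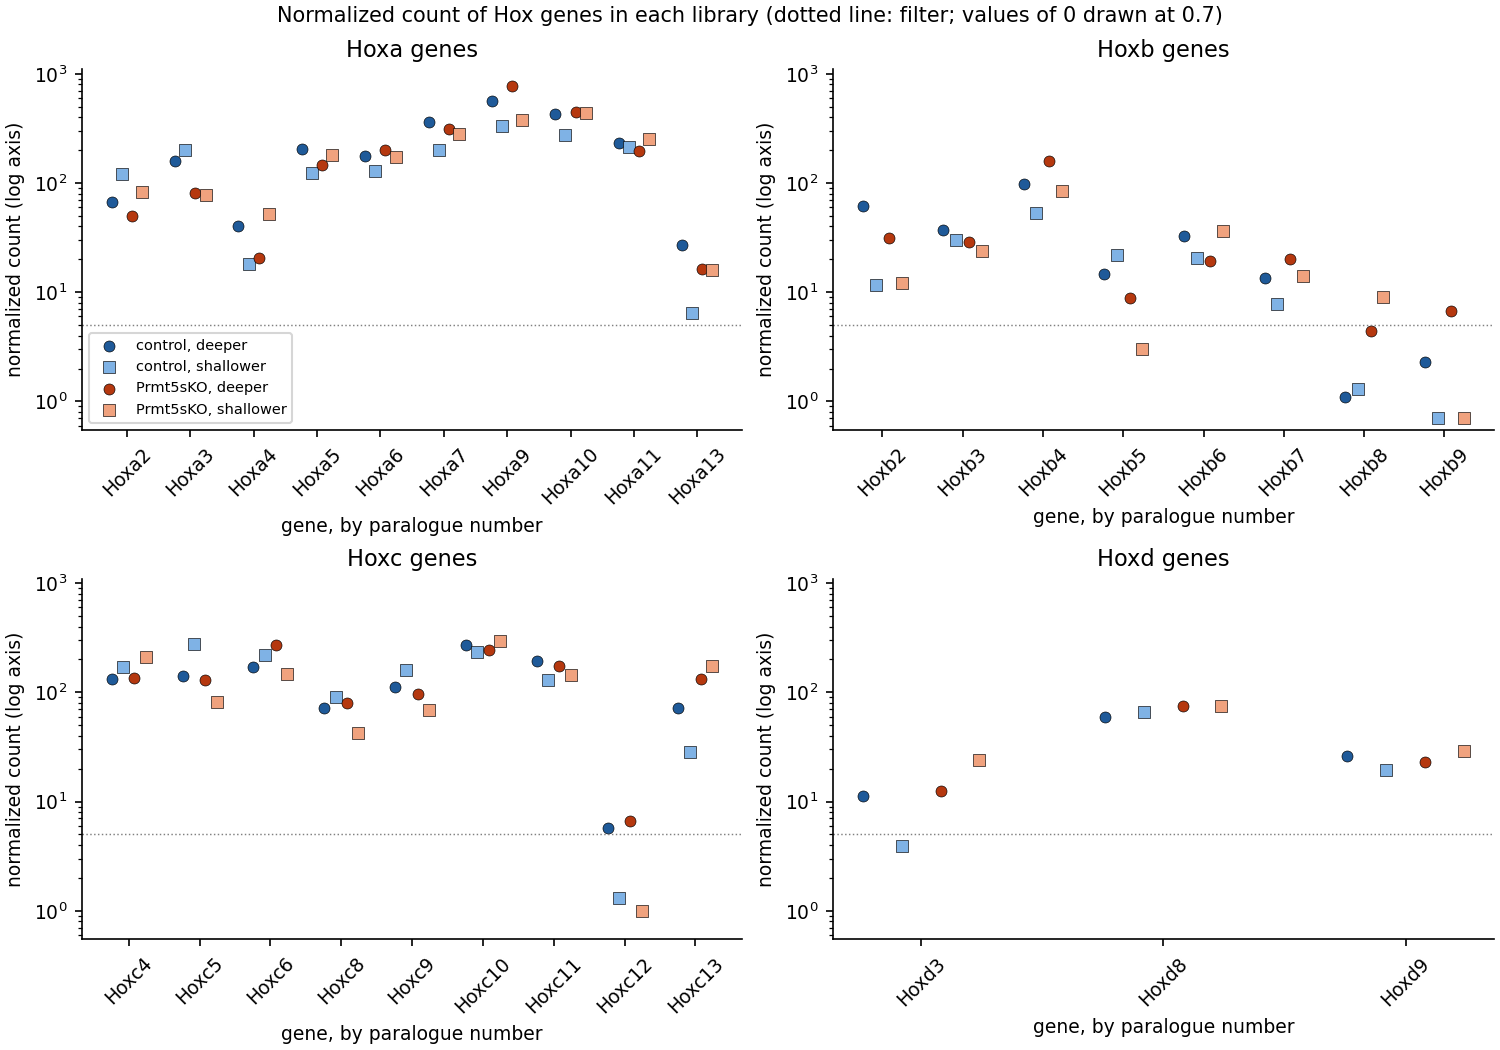
Normalized count of 30 Hox genes with a row, in each of the 4 libraries, 1 panel per cluster; the axis is logarithmic, the dotted line is the filter of 5, and values of 0 are drawn at 0.7. The groups stand apart for Hoxa3 and Hoxc13, while for most Hoxa genes the shallower control library is the lowest point.

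The groups overlapped for 8 of the 11 Hoxa genes and did not for 3 (27.3%), against 48.8% of all genes tested. Hoxa9, which is also a regulator of blood progenitors and of aged MuSC, had 567.3 and 334.6 normalized counts in control cells, then 765.4 and 377.1 in Prmt5sKO. The deeper library of each group was the high one, and the groups overlapped. Hoxa10 had 431.7 and 276.2, then 451.2 and 433.5, so that both Prmt5sKO values were higher than both controls by a small margin (log2 fold change 0.34, SE 0.30). Hoxa7, a gene of the trunk, had 358.2 and 201.0, then 314.1 and 278.6. Hoxa11 was more even, with 233.9 and 212.7 normalized counts in the controls and 196.3 and 252.4 in Prmt5sKO, and 35% of its exon bases lie opposite Hoxa11os.

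Hoxa6 had 177.4 and 128.4 normalized counts in the controls and 200.8 and 172.0 in Prmt5sKO, and the groups overlapped. Hoxa5, which patterns the neck and upper thorax, had 204.5 and 123.2, then 146.0 and 182.0, and its 95% interval ran from -0.94 to 0.95 on the log2 scale. The anterior gene Hoxa2, known from the hindbrain and second pharyngeal arch, had 66.7 and 120.6, then 49.6 and 83.5. Hoxa4 and Hoxa13 had means below 50, and their groups overlapped. Over the 11 Hoxa genes the median log2 fold change was 0.17, with 2 genes higher and 1 lower in both Prmt5sKO libraries. Of all genes tested, 25.2% were higher and 23.6% lower in both. The deeper control library lay above the shallower one in 9 of the 11, with a median log2 ratio of 0.73 against 0.01 over all genes tested.

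Hoxc genes did not follow that pattern within the control group. The deeper control library was the higher in 3 of the 8 tested, with a median log2 ratio of -0.34. Hoxc10, in the embryo a gene of the hindlimb and lumbar level, had 273.5 and 233.4 normalized counts in control cells, then 245.2 and 296.7 in Prmt5sKO. Its neighbour Hoxc11 had 193.2 and 129.7, then 174.9 and 144.8. For both genes the groups overlapped, and the log2 fold changes were 0.07 (SE 0.29) and 0.01 (SE 0.37).

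The Hoxc genes of the neck and forelimb level were Hoxc4, Hoxc5 and Hoxc6. Hoxc4 had 132.2 and 169.9 normalized counts in the controls, then 134.1 and 212.2, and Hoxc6 had 169.5 and 220.5, then 269.7 and 146.8. Both overlapped. Hoxc5 had 140.1 and 274.9 in the controls and 130.4 and 81.5 in Prmt5sKO, with a log2 fold change of -0.87 (SE 0.48) that ran from -1.40 to -0.40 when single libraries were left out. Hoxc9 likewise lay lower in both Prmt5sKO libraries, at 97.1 and 69.4 against 111.9 and 159.5 (log2 fold change -0.66, SE 0.42). In both genes the shallower control library was the highest. Hoxc8, a gene of the thorax, had 72.3 and 90.8, then 79.3 and 42.2, and the groups overlapped. The annotated Hoxc5 gene runs from 102967443 to 103017429 on chromosome 15 and shares 5.37% of its exon bases with Hoxc10, in the same direction. The median log2 fold change of the 8 Hoxc genes was 0.04.

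In the Hoxb cluster Hoxb4, known from blood stem cells, was the only gene with a mean of at least 50. It had 97.2 and 53.2 normalized counts in the controls and 158.6 and 84.5 in Prmt5sKO, and the groups overlapped. The 5 other genes tested had between 3.0 and 62.2 normalized counts in single libraries. Hoxb5 had the lowest log2 fold change of all Hox genes, -1.62, but rested on 13 and 17 counts in the controls and 12 and 3 in Prmt5sKO (SE 0.95). Hoxb3 was also lower and Hoxb7 higher in both Prmt5sKO libraries, by log2 fold changes of -0.33 (SE 0.58) and 0.67 (SE 0.81). Of the 6 Hoxb genes tested, the deeper control library was the higher in 5 and the deeper Prmt5sKO library in 5. Their median log2 fold change was -0.19. Without the deeper control library the Hoxb median was 0.75, over the Hoxb genes that passed the filter of that fit, which need not be the same 6.

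Hoxd8 was the steadiest Hoxd gene, with 59.9 and 66.1 normalized counts in the controls and 74.8 and 74.4 in Prmt5sKO (log2 fold change 0.24, SE 0.44). Hoxd9 had 26.0 and 19.5, then 23.0 and 29.2. Hoxd3 had 10 and 3 counts in the controls and 17 and 24 in Prmt5sKO (log2 fold change 1.20, SE 0.97), and 62.3% of its exon bases also belong to genes on the same strand, Hoxd4 among them. All 3 Hoxd genes had a log2 fold change above 0, with a median of 0.24.

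Of the 3 genes under the filter, Hoxb8 had 1 and 1 counts in control cells against 6 and 9 in Prmt5sKO, with exact 95% Poisson intervals of 0.0253 to 5.57 for the single counts and 4.12 to 17.1 for the 9 counts. Hoxb9 had 2 and 0, then 9 and 0 counts, where a count of 0 allows up to 3. Hoxc12 had 5 and 1, then 9 and 1. No fold change was fitted for these in the main comparison. Hoxb8 is the textbook target of the microRNA miR-196a, whose genes lie inside the Hox clusters. The mature microRNA (RefSeq, GRCm38.p6, chr15:102973365-102973386, plus strand) is shown with its seed in capitals, bases 2 to 8, above the Hoxb8 site at chr11:96284888-96284909 (plus strand), where capitals are the 21 of 22 bases that form Watson-Crick pairs with it.
miR-196a-5p: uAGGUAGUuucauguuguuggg
Hoxb8 site: CCCAACAACATGAAACTgCCTA

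Mature microRNAs are too short for these libraries, and only reads of the annotated Mir196a-2 hairpin gene were counted. It had 11 and 0 counts in control cells against 3 and 6 in Prmt5sKO, so no difference was detectable at this depth.

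No non-coding gene of the clusters that could be tested was called. The 4 clusters hold 43 non-coding genes in the annotation, of which 16 had a row and 13 passed the filter. By limma-voom 0 were called and 0 had an unadjusted p under 0.05. Their median log2 fold change was 0.09. Of the 13, 2 were higher and 2 lower in both Prmt5sKO libraries, against 25.2% and 23.6% of all genes tested. Hotair, the antisense RNA between Hoxc11 and Hoxc12, had 28.3 and 18.2 normalized counts in the controls and 29.6 and 30.2 in Prmt5sKO. Hoxa11os had 88.1 and 85.6, then 76.3 and 63.4, and Hoxb3os 90.4 and 37.6, then 80.8 and 52.3. The 1 other coding gene with a row inside a cluster, 5730596B20Rik, had 72.3 and 59.7, then 57.8 and 32.2. The remaining non-coding genes that passed the filter, Hotairm1, Gm27861, Gm27477, Hoxaas2, Gm15050, Hoxaas3, Gm11539, Hoxb5os, Gm11536 and Mir196a-2, had between 0 and 68.7 normalized counts in single libraries.

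All 9 TALE cofactors were tested, and 0 were called. Per kilobase of exon the highest of them, Pbx2, had a mean level of 210.5, beside 194 for Hoxa6. Their median log2 fold change was -0.12, with 3 lower and 0 higher in both Prmt5sKO libraries, against 23.6% and 25.2% of all genes tested. By limma-voom 2 were lower at an unadjusted p under 0.05, against 6.95% of all genes tested. Pbx3 had 457.7 and 569.3 normalized counts in control cells against 228.9 and 201.1 in Prmt5sKO, so that both Prmt5sKO values lay well below both controls. Its log2 fold change was -1.23 (SE 0.27), with an unadjusted p of 0.004 and an adjusted p of 0.247 by limma-voom, and ran from -1.41 to -1.08 over 13 other settings. Meis2 had 349.2 and 322.9, then 174.1 and 241.4 (log2 fold change -0.74, SE 0.30, adjusted p 0.384 by limma-voom). Pknox1 was lower by a small margin, with 682.6 and 766.5, then 615.7 and 659.7. Groups overlapped for Pbx2, Meis1, Meis3 and Pknox2, whose means lay between 182.6 and 1002. Pbx4 had a mean of 18.4.

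**Figure D5:**
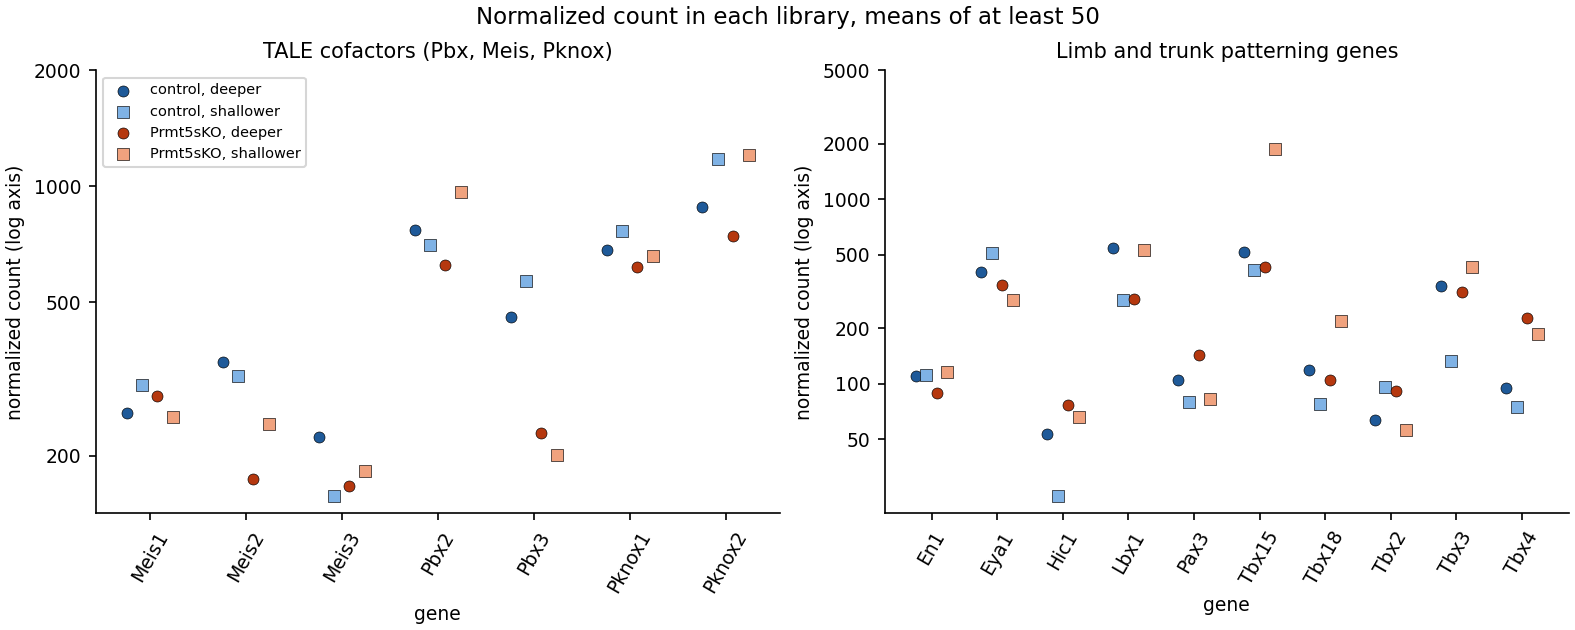
Normalized count in each library of TALE cofactors (left) and limb and trunk patterning genes (right) with a mean of at least 50, on logarithmic axes. Pbx3 and Meis2 are lower and Tbx4 is higher in both Prmt5sKO libraries, and Tbx15 is high in the shallower Prmt5sKO library alone.

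Of 21 genes that pattern limb and trunk muscle, 17 had a row and 16 were tested, with 0 called, 3 higher and 1 lower in both Prmt5sKO libraries and a median log2 fold change of 0.32. These 4 of 16 stand against 48.8% of all genes tested whose groups did not overlap. Tbx4, a T-box factor of the hindlimb, had 94.9 and 75.2 normalized counts in control cells against 227.5 and 186.1 in Prmt5sKO. With an SE of 0.38 the log2 fold change was 1.28, with an unadjusted p of 0.0151 and an adjusted p of 0.299 by limma-voom, and ran from 1.12 to 1.44 over 13 other settings. Tbx5, its relative of the forelimb, and Pitx1, a hindlimb factor upstream of Tbx4, had no row in the table used here. Hic1, a repressor used in mesenchymal progenitors, had 53.1 and 24.6, then 77.1 and 66.4. Eya1, a transcriptional coactivator of muscle development, had 403.4 and 512.3, then 342.3 and 284.6.

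Groups overlapped for the other limb and trunk genes with a mean of at least 50. Tbx15, which acts in glycolytic muscle fibres, had 517.6 and 413.7 normalized counts in the controls but 430.5 and 1878.6 in Prmt5sKO. Its high value fell in the library with the high differentiation genes, and the part of differentiation in it was not tested. Lbx1 and Pax3, genes of the myoblasts that migrate into the limb, had 541.3 and 284.0, then 287.5 and 532.0, and 105.1 and 79.1, then 143.0 and 82.5. Tbx3, Tbx18, Tbx2 and En1 had means between 76.7 and 304.1. Emx2, Alx4, Shox2 and Meox1 had means below 50, as had Lmx1b, which stood below the filter.

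Of 10 factors of the head muscles, which form in front of the Hox domain, 3 had a row. Tbx1 had 158.2 and 76.5 normalized counts in the controls and 76.3 and 114.6 in Prmt5sKO, and Isl1 a mean of 24.6. Lhx2 had 80.2 and 50.6, then 7.4 and 16.1, with a log2 fold change of -2.58 (SE 0.73) and an adjusted p of 0.285 by limma-voom. Of 9 further homeobox genes near or related to the Hox clusters, Gbx1 and Meox1 had a row, and their groups overlapped.

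Among 27 known regulators of Hox genes, 23 had a row and 22 were tested. The median log2 fold change was -0.16, with 8 lower and 3 higher in both Prmt5sKO libraries, against 23.6% and 25.2% of all genes tested, and 0 called. By limma-voom 4 were lower at an unadjusted p under 0.05, against 6.95% of all genes tested, and these 4 were named for that p. Wdr5, a core subunit of the complexes that methylate histone H3 at active Hox genes, had 1045.3 and 1721.0 normalized counts in the controls and 796.5 and 696.9 in Prmt5sKO (log2 fold change -0.84, SE 0.29). Ash2l, another core subunit, had 2009.3 and 2266.9, then 1355.9 and 1498.5 (-0.58, SE 0.20). Kmt2b, an enzyme of such a complex, had 1939.2 and 2136.0, then 1368.5 and 1396.9 (-0.56, SE 0.20). Psip1, which ties Kmt2a to chromatin, had 1481.5 and 1705.4, then 1173.6 and 1034.9 (-0.53, SE 0.21). Their adjusted p lay between 0.332 and 0.372 by limma-voom. Kmt2a itself had 3808.3 and 5527.3, then 3541.6 and 2640.0, and Kat6a 3632.1 and 3993.1, then 3150.4 and 2541.4. Other subunits of the same complexes did not reach that p. Men1 had 951.5 and 779.4, then 760.9 and 695.9 (-0.24, SE 0.22), and the groups overlapped for Rbbp5 (-0.11, SE 0.22) and Dpy30 (-0.52, SE 0.35).

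The retinoic acid branch of these regulators was mixed. The receptor Rarg had 708.6 and 626.4 normalized counts in the controls and 977.3 and 900.1 in Prmt5sKO, whereas Rara had 705.2 and 827.4, then 661.6 and 832.7. Egr2, a hindbrain regulator of Hoxa2 and Hoxb2, had 79.1 and 0, then 160.8 and 108.6. Cyp26b1, which degrades retinoic acid, ranged from 42.8 in the shallower to 386.5 in the deeper control library and had 191.9 and 290.6 in Prmt5sKO. The other regulators with a mean of at least 50, Rbbp5, Zfp281, Rxra, Rxrb, Gdf11, Dpy30 and Men1, had means between 404.8 and 1393.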

How the data were processed

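RNA of 4 libraries was measured (2 control, 2 Prmt5sKO), and samples were grouped by their labels. RNA was depleted of ribosomal RNA and made into Ion Torrent libraries. Reads were trimmed by the authors (Reaper), mapped to GRCm38 (mm10) with STAR 2.4.0a per the submitters' processing notes, and counted per gene. Reads that overlapped several genes or mapped to several places stayed unassigned. The deposited signal values are means, made by the authors, of counts divided by DESeq2 (1.62) size factors over the 2 libraries of each group. The authors also deposited log2 fold changes with their standard errors, and p-value columns, of their own comparison, and none of these was used.

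Each group mean adds up 2 libraries, each in whole steps of its own size, and counts per library were recovered from these steps for 100% of 20065 genes. They were checked on simulated data. Gene names, exons and coordinates came from GENCODE M21 (19782 identifiers matched). Counts were scaled by TMM (own code, trims 30% and 5%), a filter kept genes whose normalized counts averaged 5 or more, and limma-voom (limma 3.58.1, R 4.3.3) compared the groups, with Benjamini-Hochberg adjustment over 16212 genes. The deposited columns are means, and no count model was run on the counts recovered from them. Totals were 13240754 to 20047430 counts a library. The binomial (Wilson) and Poisson intervals cover counting error only. The intervals of the log2 fold changes rest on the limma-voom standard errors, which also include the spread between libraries. Homeobox stretches were read from GENCODE transcripts and microRNAs from RefSeq (Python 3.11.15). No protein sequence was used here. Every Hox gene with a mean of at least 5 was named, and those of at least 50 were given in every library, but some genes and sequences are not reported here and were left out of the figures. Companion lists were the TALE cofactors, limb and trunk genes, head muscle factors, related homeobox genes, Hox regulators, the other genes of the clusters and cell type markers. The Hox genes and these lists were chosen with earlier results of these data known.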

Additional observations from a re-analysis of the deposited data

How the results depend on the processing

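Under all 13 alternative fits 0 Hox genes were called, and the smallest adjusted p of a Hox gene was 0.137 (Hoxc13, crossed pairing, limma-voom). Over all genes, 0 were called by limma-voom except with a replicate block in the crossed pairing (346 genes, 2.13%) and without a Prmt5sKO library: the count ran from 0 to 489 when single libraries were left out, with 489 without the deeper and 55 without the shallower Prmt5sKO library. A lone library is then assumed to vary like the other group. Since replicate numbers are absent from the columns, both possible pairings were run: deviations of the deeper libraries correlated at -0.17 over 16212 genes, and the block with the deeper libraries paired called 0 genes. The crossed pairing is the one that puts libraries of the same sex together, by Xist and the Y-linked genes. The pairing changed no Hox call. The Hox genes whose groups did not overlap numbered 18 to 25 with a library left out, where 1 value faces 2. The share of all genes without overlap was not taken for these fits, so this count cannot be set against it. The filter was applied anew in each of these fits, so the Hox genes tested need not be the same 28. The Hox median with a library left out ran from -0.08 to 0.36. The Hoxb median was -0.19 but 0.27 with no filter, which adds Hoxb8 and Hoxb9. Of 28 genes, 15 kept their direction in every fit. Changed signs were close to 0 apart from left-out libraries. They were 0.09 for Hoxa11 and 0.08 for Hoxb6 with library size only, which moved the median of all genes to 0.13, -0.01 for Hoxa5 and -0.0026 for Hoxc11 with the deposited size factors, -0.02 and -0.01 for the same genes with upper quartile scaling, -0.0013 for Hoxa5 with a filter of 20 and -0.0007 without ribosomal-type, Lars2 and sex-chromosome genes. With limma-trend Hoxb6 was 0.02. In the replicate block with deeper libraries paired, Hoxa5 was -0.03, Hoxa13 -0.05 and Hoxc11 -0.02, and in the crossed pairing Hoxa11 was 0.0015, Hoxb6 0.03 and Hoxc11 -0.0026. With single libraries left out, log2 fold changes that changed sign ran from -0.43 to 0.89 (Hoxa4), -0.33 to 0.37 (Hoxa5), -0.26 to 0.55 (Hoxa7), -0.23 to 0.79 (Hoxa9), -0.19 to 0.17 (Hoxa11), -0.73 to 1.21 (Hoxa13), -1.58 to 0.75 (Hoxb2), -0.46 to 0.44 (Hoxb6), -0.15 to 0.51 (Hoxc4), -0.39 to 0.49 (Hoxc6), -0.05 to 0.22 (Hoxc10), -0.26 to 0.29 (Hoxc11) and -0.02 to 0.36 (Hoxd9). The cause was not tested. Group means of the cluster shares moved when genes that share exon bases were left out: Hoxa from 55.9% and 57.8% (control and Prmt5sKO) to 40.7% and 42.0%, Hoxc from 35.8% and 32.9% to 47.3% and 43.7%, Hoxd from 2.65% and 3.25% to 5.2% and 5.25%, and Hoxb in Prmt5sKO from 6.1% to 9.1%. Per kilobase, the Prmt5sKO shares were 56.1% (Hoxa) and 35.0% (Hoxc). Pbx3, Tbx4 and the other companion genes were put through these settings after seeing the data. The depth and the 2 libraries a group, with a median half-width of 1.21 on the log2 scale for a Hox gene, limit what could be detected. The main fit did not call the deleted gene Prmt5 either (adjusted p 0.193 by limma-voom). The missing Hox calls therefore do not show equal levels.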
